A study of Mus musculus with 6 samples.

Results

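Long noncoding RNAs are transcripts with no long open reading frame. Those described here were 310 genes annotated as such that mouse CD8 T cells expressed after activation. They were chosen by annotation and level, not by reading frame, and RefSeq lists 9 of them as protein-coding. A gene entered if the GENCODE vM21 annotation gives it the type lincRNA, antisense or bidirectional promoter lncRNA and if its expected counts summed to 100 or more over the 6 libraries. Of 5675 genes of these 3 types among the 46517 genes counted, 310 met the rule, and 3810 had no count in any library. The 310 genes comprised 165 of 3302 lincRNAs, 130 of 2280 antisense genes and 15 of 93 genes of bidirectional promoters. The last start beside a protein-coding gene and run away from it. The lincRNA type is named for RNAs between genes, but some lincRNAs here, such as Prr33, overlap a protein-coding gene. Just outside the rule lay A230020J21Rik with 99.85 counts, Gm12167 with 99.86 and Gm28874 with 99.92, and just inside it lay Gm17586, Sap30bpos and Gm17477 with 100 each.

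The study asked how activated CD8 T cells respond to medium in which basophils had been stimulated with IL-3. Naive CD8 T cells of C57BL/6J mice, from spleen and lymph nodes, were stimulated for 3 days on plates coated with αCD3 (5 μg/mL), with soluble αCD28 (0.5 μg/mL) and IL-2 (100 units/mL). Both groups received basophil supernatant from day 1 to day 2. The basophils had been sorted and kept for 2 days with IL-2 (100 units/mL). They also received IL-3 at 3 ng/mL (IL-3 supernatant, 3 libraries) or PBS alone (PBS supernatant, 3 libraries). IL-3 left in the medium and products of the basophils therefore cannot be told apart, and no group without supernatant was analysed here. Whether the 3 replicates of a group were separate mice or separate wells is not labelled. The p-values thus rest on variation among these libraries alone, and that variation may be technical. No age of the mice is given in the labels.

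Long noncoding RNAs act in several ways. Some scaffold nuclear bodies, some keep neighbouring genes active or silent, some bind microRNAs, and others serve mainly as host transcripts from which microRNAs or small nucleolar RNAs (snoRNAs, guides of ribosomal RNA modification) are cut. In T cells, activation induces the host transcript of miR-155, a microRNA needed for strong CD8 T cell responses. Most long noncoding RNAs are expressed at low levels and lie within or beside protein-coding genes.

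The libraries held 17377052 to 22174902 counts, of which the 310 genes made up 0.403% to 0.550%. The summed level of 8 CD8 T cell marker genes was 2451 to 2620 CPM (counts scaled to a common library size) with PBS supernatant and 1709 to 1871 CPM with IL-3 supernatant, and 6 of the 8 were lower and 1 higher with IL-3 supernatant, Cd8a most of all. Markers of basophils and mast cells summed to 0.153 to 0.991 CPM, with 4 of 8 at 0 in every library, those of NK cells to 0 to 0.257 CPM, those of myeloid cells to 1.35 to 2.68 CPM and those of B cells to 2.78 to 3.82 CPM. The 3 markers of CD4 T cells summed to 6.44 to 9.29 CPM with PBS and 17.9 to 19.8 CPM with IL-3 supernatant, led by the transcription factor gene Zbtb7b, which was 2.82-fold higher. The other markers of that list did not rise: Cd4 was at 0.692 and 0.301 CPM on average and was not tested, and Cd40lg was at 0.913 and 0.385 CPM and was not called (adjusted p = 0.0842, edgeR). In bulk RNA, fewer cells of a type and less RNA per cell cannot be told apart.

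The median long noncoding RNA of the rule had 2.18 CPM over the 6 libraries, against 31.4 CPM for the protein-coding genes tested. Per length, the highest levels belonged to Gm26809 with a mean of 452 TPM (transcript shares scaled for length), Gm43549 with 409 TPM and AW112010 with 329 TPM. Malat1, the abundant RNA of nuclear speckles, came to 134 TPM. A small number of genes carried most of the signal. The 10 with the highest mean CPM over the 6 libraries made up 58.2% to 70.7% of the counts of the 310, depending on the library.

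Of the 309 genes that could be tested, 28 were higher and 22 were lower in the IL-3 group than in the PBS group (adjusted p below 0.05, edgeR's quasi-likelihood test, Benjamini-Hochberg adjustment over all 12407 genes tested). That is 16.2% of the 309, against 30.9% of all genes tested, where 14.8% were higher and 16.1% lower. A change of at least 2-fold was found in 14 of the 28 and 10 of the 22, against 539 of 1834 higher and 427 of 2001 lower genes overall. The median standard error was 0.34 in the 309 genes and 0.10 over all genes. The median log2 fold change was -0.03 over the 309 genes and -0.00 over all genes. Gm11175, which overlaps the AP-1 gene Jund, had 138.76 counts but did not pass the filter on low values. Leaving out 1 library at a time, 18 of the 28 and 12 of the 22 remained called in each of the 6 fits.

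The lower share of calls was seen at most levels of expression but not at all of them. Below an average log2 CPM of 1, 8.4% of the long noncoding RNAs and 17.1% of all genes were called, and from 1 to 3 the shares were 15.7% and 29.3%. From 3 to 5 the order turned, with 41.7% of 36 long noncoding RNAs against 31.8% of all genes. From 5 upward it was 23.8% of 21 against 35.4%. By type, 15 lincRNAs were higher and 18 lower of 165 (20% called). Of 129 antisense genes, 11 were higher and 3 lower (10.9%). Of 15 genes of bidirectional promoters, 2 were higher and 1 lower (20%). Over all genes tested, 30.9% were called, 14.8% higher and 16.1% lower, and the split of directions by type was not tested.

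The 3 values of one group lay apart from the 3 of the other in 102 of the 309 genes (33.0%), against 43.6% of all genes tested. They did so in all 50 called genes. On the first principal component of the 309 genes, which held 43.2% of their variance, the 3 PBS libraries lay on one side and the 3 IL-3 libraries on the other.

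**Figure D1:**
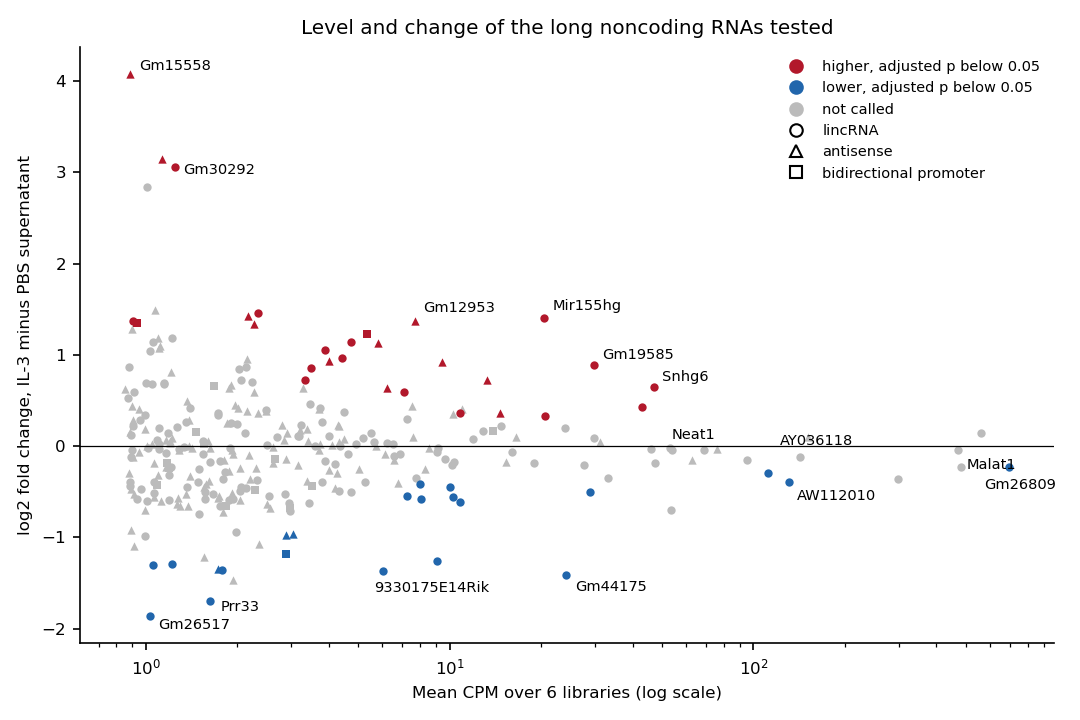
Mean CPM over the 6 libraries (x axis, log scale) against the log2 fold change, IL-3 minus PBS supernatant (y axis), for the 309 long noncoding RNAs tested. Red points are the 28 genes higher and blue points the 22 lower at an adjusted p below 0.05, grey points were not called, and the marker shape gives the gene type. The largest fold changes lie near 1 CPM, while Mir155hg and Gm44175 changed by over 2-fold at a mean above 20 CPM.

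Mir155hg, the host transcript of miR-155, rose. It lies at chr16:84703167-84715245 on the plus strand (GRCm38) and has 3 exon blocks. The miRNA that it carries yields these mature strands, printed from RefSeq (GRCm38.p6) with the seed, bases 2 to 8, in capitals, because the seed decides which messages a miRNA pairs with. The libraries measured the host transcript and not the mature miRNA.
mmu-miR-155-5p: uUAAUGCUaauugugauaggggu
mmu-miR-155-3p: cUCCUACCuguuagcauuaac
Mir155hg had 12.4, 11.3 and 9.98 CPM with PBS supernatant and 27.3, 34.6 and 27.3 CPM with IL-3 supernatant. Every IL-3 library lay above every PBS library, by more than the spread within either group. The log2 fold change was 1.41 (SE 0.12, adjusted p = 1.12e-07, edgeR), a 2.65-fold rise from 11.2 ± 1.22 to 29.7 ± 4.19 CPM (SD, n = 3). Its neighbour Mrpl39, a mitochondrial ribosomal protein gene that ends 2331 bases away, was not called (log2 fold change 0.13, adjusted p = 0.161, edgeR).

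Of the 309 genes, 9 overlap an annotated miRNA, and among these Mir155hg alone was called (11.1%, against 16.2% of the 309 and 30.9% of all genes). Mir17hg carries the miR-17 to miR-92 cluster, which supports lymphocyte proliferation. The cluster holds 4 seed families, shown here by their main strands from RefSeq (GRCm38.p6, seeds in capitals): miR-17 and miR-20a share 1 seed and miR-19a and miR-19b another, while miR-18a and miR-92a each have their own.
mmu-miR-17-5p: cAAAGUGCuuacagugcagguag
mmu-miR-20a-5p: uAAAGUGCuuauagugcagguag
mmu-miR-18a-5p: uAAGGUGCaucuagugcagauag
mmu-miR-19a-3p: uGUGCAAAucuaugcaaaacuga
mmu-miR-19b-3p: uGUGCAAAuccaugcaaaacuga
mmu-miR-92a-3p: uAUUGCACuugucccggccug
Mir17hg had 44.2, 34.7 and 32.6 CPM with PBS supernatant and 26.9, 35.3 and 24.9 CPM with IL-3 supernatant. The groups overlapped through IL-3 replicate 2. The log2 fold change of -0.35 (SE 0.15) was not called (adjusted p = 0.121, edgeR), but without IL-3 replicate 2 it was -0.51 and called, and DESeq2 called it on all libraries with an adjusted p of 0.0465. The remaining miRNA hosts, among them H19 with miR-675, Ftx with miR-421 and 6720427I07Rik with let-7 members, had log2 fold changes from -0.14 to 0.42 and were not called.

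Host transcripts of snoRNAs were called in 1 direction. Of 7 long noncoding RNAs of the rule that overlap an annotated snoRNA, 3 were higher and none lower (14.8% and 16.1% of all genes). Snhg6, which hosts Snord87, had 33.6, 39.4 and 36.9 CPM with PBS supernatant and 56.2, 57.2 and 58.3 CPM with IL-3 supernatant. Its IL-3 values lay close together and far above the PBS values, with a log2 fold change of 0.64 (SE 0.08, adjusted p = 6.57e-06, edgeR). Snhg12, which hosts 5 annotated snoRNAs including Snora44, Snora61 and Snord99, had 36.3, 39.7 and 33.6 CPM with PBS supernatant and 46.3, 54.1 and 47.3 CPM with IL-3 supernatant. These groups did not overlap either, and the log2 fold change was 0.43 (SE 0.09, adjusted p = 0.00119, edgeR).

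Epb41l4aos, the third, was at 8.85, 9.09 and 10.4 CPM with PBS supernatant and at 11.9, 12.3 and 12.3 CPM with IL-3 supernatant. Its log2 fold change of 0.36 (SE 0.13, adjusted p = 0.0382, edgeR) was near the threshold. DESeq2 did not call it (adjusted p = 0.076), and the call was lost without PBS replicate 1, PBS replicate 2 or any 1 of the 3 IL-3 libraries, with log2 fold changes from 0.32 to 0.38. Snhg20 stayed near 9 CPM in both groups (log2 fold change -0.02, SE 0.14), and Rab26os, 2900076A07Rik and 2700038G22Rik, which also host a snoRNA, were not called.

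The wider list of snoRNA hosts includes processed transcripts and ribosomal protein genes outside the rule, and it was chosen with earlier results of these data known. It had 16 genes tested, of which 7 were higher and none lower (43.8% called). Of all genes tested, 30.9% were called, 14.8% higher and 16.1% lower. The 7 include Snhg6, Snhg12 and Epb41l4aos, already counted above, so the list is not separate evidence. Its median log2 fold change was 0.18, against -0.00 over all genes. Besides the genes above, Zfas1 (0.33, adjusted p = 0.000984, edgeR), Snhg5 (0.25, adjusted p = 0.0281), Gas5 (0.22, adjusted p = 0.0194) and the ribosomal protein gene Rpl13a (0.19, adjusted p = 0.0174) rose. Gas5, whose RNA is spliced around many box C/D snoRNAs, was by CPM the highest noncoding host of the list, at 378 ± 27.5 CPM in the PBS group and 439 ± 33.9 CPM in the IL-3 group (SD, n = 3). Of 12 genes for box C/D and box H/ACA proteins, which bind the snoRNAs, 2 were higher and 1 lower (25%, against 30.9% of all genes), with a median log2 fold change of 0.04.

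**Figure D2:**
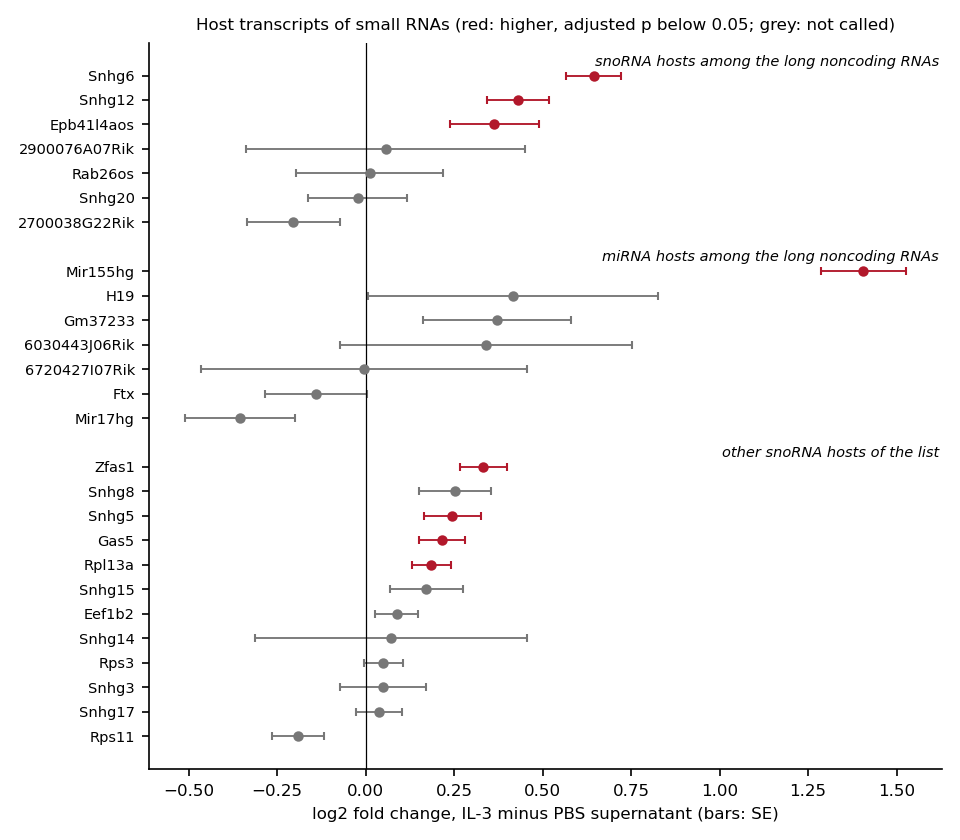
The log2 fold change, IL-3 minus PBS supernatant (x axis), with its standard error for host transcripts of small RNAs (y axis, 1 gene per row): 7 snoRNA hosts and 7 miRNA-only hosts among the long noncoding RNAs, and 12 other snoRNA hosts of the list. Red points were higher at an adjusted p below 0.05 and grey points were not called. None of the hosts plotted was called lower.

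The best characterised nuclear RNAs did not pass the test. Malat1 had 573, 409 and 456 CPM with PBS supernatant and 489, 506 and 398 CPM with IL-3 supernatant. The groups overlapped throughout (log2 fold change -0.05, SE 0.17, adjusted p = 0.877, edgeR). Neat1, the scaffold of paraspeckles, had 56, 52.1 and 55.8 CPM and 50.2, 65.6 and 43.3 CPM in the same order, again overlapping (-0.04, SE 0.14). Of 10 paraspeckle protein genes tested, none was higher and 2 were lower (20%, against 30.9% of all genes), with a median log2 fold change of -0.05.

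Norad, annotated as 2900097C17Rik and known to bind Pumilio proteins, was almost level at 46.3 ± 3.75 and 45.5 ± 2.13 CPM (SD, n = 3; log2 fold change -0.03, SE 0.08). Tug1 (-0.15, SE 0.12) and Pvt1 (-0.17, SE 0.15) were not called. Pvt1 lies 47612 bases from Myc, the growth-promoting transcription factor gene, which was itself lower by -0.22 on the log2 scale (SE 0.06, adjusted p = 0.00876, edgeR). RNAs of imprinted domains had large errors: H19 had a log2 fold change of 0.42 (SE 0.41), Nespas 0.28 (SE 0.41), Kcnq1ot1 0.04 (SE 0.22) and Airn -0.57 (SE 0.37). None was called, and Igf2r, the gene that Airn silences on the paternal chromosome, was lower (-0.29, SE 0.05, adjusted p = 0.000576, edgeR). Jpx (-0.58, SE 0.34) and Ftx (-0.14, SE 0.14), of the X-inactivation centre, were not called. Xist itself was almost absent, with 17.6 counts summed over the 6 libraries, so it lay outside the rule and was not tested. Among 13 genes for protein partners of Xist RNA, 2 were higher and 2 lower (30.8%), and among 16 genes of the nuclear RNA exosome and its cofactors the counts were the same (25%), both near or below the 30.9% of all genes.

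Mir155hg, AW112010, Epb41l4aos, Snhg6 and Snhg12 were the called genes among the characterised RNAs and snoRNA hosts of the rule. AW112010, a transcript induced in immune cells by inflammatory stimuli, fell. It lies at chr19:11047612-11055808 on the minus strand and was the third by TPM. It had 145, 146 and 154 CPM with PBS supernatant and 114, 112 and 113 CPM with IL-3 supernatant. The IL-3 values were tightly grouped below all PBS values, and the log2 fold change was -0.39 (SE 0.05, adjusted p = 3.04e-05, edgeR). The deposited values do not tell which of its possible products, RNA or short peptide, the cells made.

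There were 2 other abundant genes that fell. Gm26809, first of all by TPM, had 727, 736 and 782 CPM with PBS supernatant and 619, 623 and 682 CPM with IL-3 supernatant. The groups did not overlap, but the change was small at -0.22 (SE 0.05, adjusted p = 0.00472, edgeR). Oip5os1, annotated as 1700020I14Rik and known as Cyrano, directs the decay of miR-7. It had 129, 116 and 123 CPM against 93.9, 111 and 94.7 CPM, a log2 fold change of -0.30 (SE 0.07, adjusted p = 0.00427, edgeR) without overlap. The protein-coding gene Oip5, whose end faces its own 2010 bases away, was not called (-0.25, SE 0.11). Neither Gm26809 nor 1700020I14Rik was called by limma on log2(TPM + 1), with adjusted p of 0.0565 and 0.0806. Gm43549 (0.14, SE 0.27), Gm12840 (-0.16, SE 0.16) and Gm29084 (0.10, SE 0.06) were not called, although without PBS replicate 1 Gm29084 was called at 0.15.

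Another 3 abundant genes varied too widely between libraries to be compared. Gm42418, which RefSeq lists as Rn18s-rs5, a pseudogene related to 18S ribosomal RNA, and its neighbour Gm26917 lie together with AY036118 at chr17:39843013-39848788. Gm42418 had 168, 720 and 124 CPM with PBS supernatant and 399, 275 and 112 CPM with IL-3 supernatant. Gm26917 had its highest value in the same library, PBS replicate 2, at 1036 CPM, and CT010467.1, a gene outside the rule, also peaked there at 46832 CPM against 4286 CPM in PBS replicate 3. AY036118 followed another order, with 371, 35.3 and 40.4 CPM and then 80.1, 324 and 5.62 CPM. Together the 3 genes held 8.001% to 31.3% of the counts of the 310 genes, and the standard errors of their log2 fold changes were 0.94 for Gm42418, 0.83 for Gm26917 and 1.67 for AY036118.

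**Figure D3:**
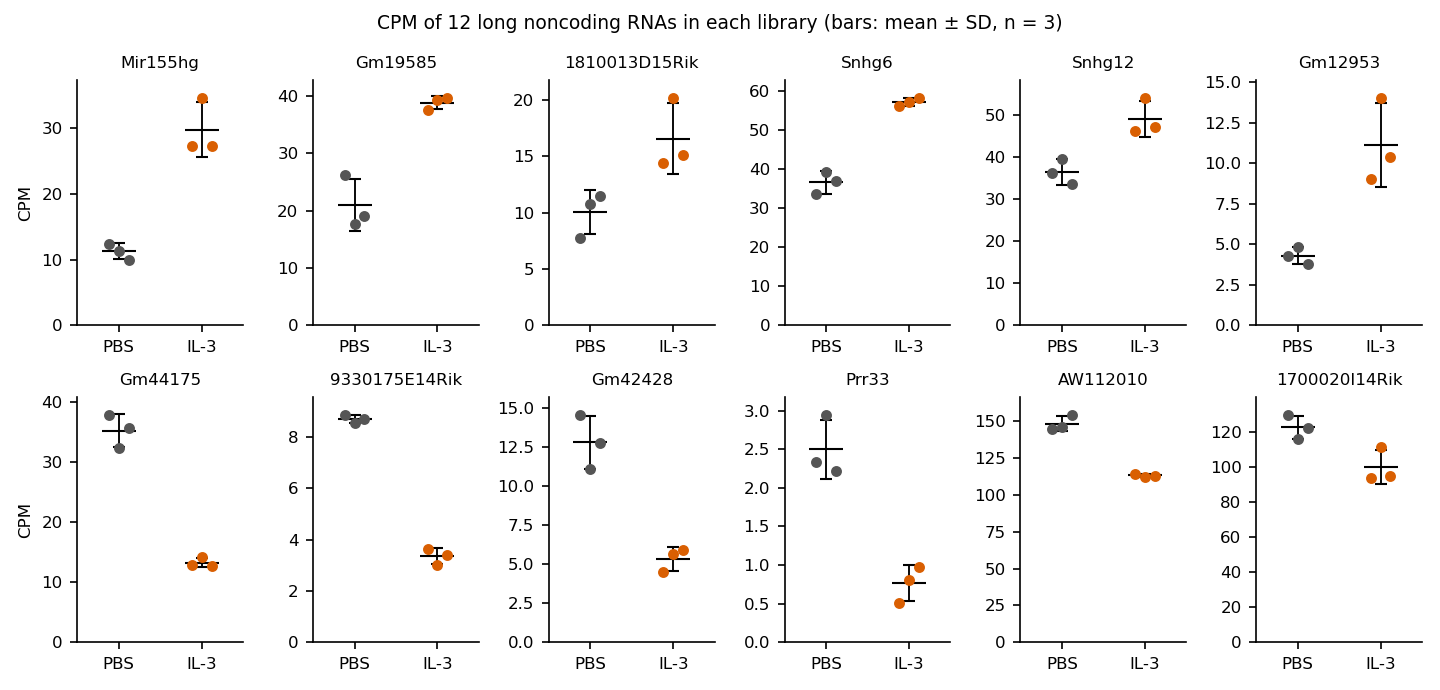
CPM (y axis, starting at 0) in each of the 3 PBS (grey) and 3 IL-3 (orange) supernatant libraries for 12 long noncoding RNAs, with the mean and SD as black bars. In all 12 panels the points of the 2 groups lie apart. Snhg6 rises from 33.6 to 39.4 CPM to 56.2 to 58.3 CPM, and Gm44175 falls from at least 32.3 CPM to at most 14.1 CPM.

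Among called genes whose average log2 CPM was 1 or more, the 12 highest changes were, in order, those of Gm10827, Gm11525, Mir155hg, Gm12953, Gm17590, F730043M19Rik, Gm26909, Gm15541, Gm26764, BC051077, Gm13075 and Gm4419. F730043M19Rik, at chr12:33111711-33147597, starts 96 bases from Atxn7l1 and runs away from it. It had 3.34, 2.99 and 3.25 CPM with PBS supernatant and 6.85, 7.93 and 7.66 CPM with IL-3 supernatant. Both groups were tight, and the log2 fold change was 1.23 (SE 0.18, adjusted p = 4.76e-05, edgeR), while Atxn7l1 stayed level (0.01, SE 0.08). Gm10827 starts 55 bases from Ccdc28a in the same way and gave a like picture, at 1.46 (SE 0.32, adjusted p = 0.00223, edgeR) against -0.01 (SE 0.26) for Ccdc28a.

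Gm12953, at chr4:116551740-116552627, lies antisense to Tmem69 and shares 87.5% of its exonic bases with protein-coding exons. It had 4.28, 4.82 and 3.76 CPM with PBS supernatant and 9.01, 14.004 and 10.4 CPM with IL-3 supernatant. The groups were far apart (log2 fold change 1.38, SE 0.18, adjusted p = 2.01e-05, edgeR), and Tmem69 was not called (0.15, SE 0.14). Without strand, reads of such a gene and of its partner cannot be told apart, and the library kit did not mark strand. The same holds for Gm17590 in Cdk6, a cell cycle kinase gene, where the antisense gene rose (1.33, SE 0.30, adjusted p = 0.00273, edgeR) and Cdk6, at 456 CPM with PBS supernatant, was not called (-0.17, SE 0.07).

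The other genes of that order rose by 1.43 (Gm11525, SE 0.34), 1.14 (Gm26909, SE 0.25), 1.06 (Gm26764, SE 0.25), 0.97 (BC051077, SE 0.21) and 0.93 (Gm4419, SE 0.20) on the log2 scale. Gm15541 and Gm13075 were less steady. Gm15541 (1.13, SE 0.31, adjusted p = 0.0225, edgeR) was not called without PBS replicate 1 (1.02), PBS replicate 2 (1.09) or IL-3 replicate 1 (1.19). Gm13075 (0.93, SE 0.26, adjusted p = 0.0101, edgeR) was not called without IL-3 replicate 2, when it was 0.61.

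The 3 largest rises of all, Gm15558, 4931406G06Rik and Gm30292, were seen in genes near 1 CPM. These genes met the count minimum through the IL-3 libraries, and Gm15558 and Gm30292 were singled out after their values were seen. Gm15558, antisense within Clec16a, had 0.167, 0 and 0.114 CPM with PBS supernatant and 2.27, 0.81 and 1.99 CPM with IL-3 supernatant, from 5 counts in all against 101. Its fitted log2 fold change of 4.08 (SE 0.69, adjusted p = 0.000222, edgeR) depends on the prior count. Socs1, the cytokine signalling inhibitor gene 98701 bases away, was higher too (0.82, SE 0.08, adjusted p = 4.59e-07, edgeR), and Clec16a was not called (0.15, SE 0.09). Gm30292, 184090 bases from Cog6, went from 14 counts to 135 (3.06, SE 0.49, adjusted p = 0.000135, edgeR). 4931406G06Rik went from 12 counts to 125 (3.15, SE 0.52, adjusted p = 0.000166, edgeR), and RefSeq treats that symbol as a synonym of its partner 4932438H23Rik.

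Among the genes that fell, Gm44175 carried the firmest result. It lies at chr6:71354351-71360829 on the minus strand, between the genes of the CD8 co-receptor chains. It starts 12598 bases from the start of Cd8a and runs away from it, with Cd8b1 on its other side. Gm44175 had 37.8, 32.3 and 35.6 CPM with PBS supernatant and 12.9, 14.1 and 12.7 CPM with IL-3 supernatant. Each IL-3 value was below every PBS value by a wide margin, and the log2 fold change was -1.41 (SE 0.10, adjusted p = 8.37e-09, edgeR).

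Cd8a, which encodes the alpha chain of the co-receptor, had 805, 857 and 886 CPM with PBS supernatant and 367, 370 and 395 CPM with IL-3 supernatant. It fell in the same direction, by 1.17 on the log2 scale (SE 0.05, adjusted p = 5.72e-11, edgeR). Cd8b1, for the beta chain, fell by 0.42 (SE 0.06, adjusted p = 2.51e-05, edgeR). The sum of CD8 T cell markers given above also fell, but it contains Cd8a and Cd8b1 themselves. Of the other markers in that sum, Cd3d, Cd3e, Cd3g and Cd2 were lower, Cd247 was higher (0.30) and Lck was not called (-0.04). The part of these markers in the change of Gm44175 was not tested.

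Gm44226, at chr6:48754230-48755986, lies in the cluster of Gimap genes, which encode GTPases that support lymphocyte survival. It had 13.63, 11.97 and 11.004 CPM with PBS supernatant and 8.96, 6.75 and 9.19 CPM with IL-3 supernatant. The groups lay apart (log2 fold change -0.56, SE 0.15, adjusted p = 0.00853, edgeR), but without IL-3 replicate 2 the value was -0.41 and not called. Of its neighbours, Gimap7 (-0.79), Gimap4 (-0.68), Gimap6 (-0.49), Gimap3 (-0.44) and Gimap1 (-0.30) were also lower. Gimap5, whose end is 20 bases from the end of Gm44226, was not called (-0.01, SE 0.07), nor were Gimap8 and Gimap9.

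9330175E14Rik, at chr8:94422898-94435103 on the minus strand, lies opposite Nlrc5, an activator of MHC class I genes, with 1.31% of its exonic bases shared with protein-coding exons. It had 8.85, 8.53 and 8.72 CPM with PBS supernatant and 3.66, 3.02 and 3.42 CPM with IL-3 supernatant. Both groups were tight and far apart (log2 fold change -1.37, SE 0.17, adjusted p = 8.24e-06, edgeR). Nlrc5 fell as well, by 0.63 (SE 0.06, adjusted p = 3.03e-07, edgeR).

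Gm42428, a gene of 302 bases at chr5:44136620-44136921, had 14.5, 11.1 and 12.8 CPM with PBS supernatant and 4.48, 5.63 and 5.92 CPM with IL-3 supernatant. Its groups also lay apart (log2 fold change -1.26, SE 0.16, adjusted p = 9.72e-06, edgeR), and the nearest protein-coding gene, Prom1 at 34588 bases, was not tested. The body of 1700097N02Rik overlaps those of the glyoxalase gene Glo1 and the dynein gene Dnah8. It shares exonic bases on the same strand with its nearest protein-coding gene, so reads of the 2 may be mixed. 1700097N02Rik fell by 1.19 (SE 0.33, adjusted p = 0.0105, edgeR) with 2.84, 2.99 and 6.27 CPM in the PBS libraries. Without PBS replicate 3 the value was -0.72 and not called. Glo1 was not called (0.15, SE 0.07), and Dnah8 fell by 1.77 (SE 0.14, adjusted p = 5.16e-08, edgeR). Gm26982 (-0.96, SE 0.27), Gm26541 (-0.61, SE 0.13) and Gm26880 (-0.58, SE 0.15) were lower in every fit that left out 1 library. Gm27177 (-0.98, SE 0.28) lost its call without PBS replicate 3 (-0.94) or IL-3 replicate 3 (-0.78).

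The remaining named falls were smaller. Gm17275 (-0.55, SE 0.17, adjusted p = 0.0184, edgeR) was not called without PBS replicate 1 (-0.42), IL-3 replicate 1 (-0.47) or IL-3 replicate 3 (-0.54). Gm26617 (-0.44, SE 0.15, adjusted p = 0.0339, edgeR) was not called without PBS replicate 1 (-0.35), PBS replicate 3 (-0.47), IL-3 replicate 1 (-0.34) or IL-3 replicate 3 (-0.41), nor by DESeq2 (adjusted p = 0.0602). Their partners differ in role. H3f3a, a histone variant gene opposite Gm17275, was lower (-0.22, SE 0.05), and Zxdb near Gm26617 was not called (0.06, SE 0.19).

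The 2 largest falls by fold were again in genes near 1 to 2 CPM and were named after their values were seen. Prr33, annotated as a lincRNA at chr7:142491074-142506771, overlaps the start of the troponin gene Tnnt3 and the end of Lsp1, a gene for an actin-binding protein of leukocytes. Prr33 had 2.34, 2.94 and 2.22 CPM with PBS supernatant and 0.515, 0.810 and 0.970 CPM with IL-3 supernatant. The groups did not overlap (log2 fold change -1.70, SE 0.39, adjusted p = 0.00270, edgeR), and Lsp1 fell by 1.63 (SE 0.08, adjusted p = 2.57e-10, edgeR). Lsp1 was far more abundant, at a mean of 148 CPM with PBS and 47.8 CPM with IL-3 supernatant. Since the library kit did not mark strand, reads of Lsp1 and Prr33 may be mixed where the 2 genes overlap. Gm26517, opposite Heatr5a, went from 87 counts to 27 (-1.86, SE 0.45, adjusted p = 0.00418, edgeR), while Heatr5a was not called (-0.05, SE 0.07). Gm26517 and Prr33 (134 counts with PBS and 47 with IL-3 supernatant) met the count minimum mainly through the PBS libraries. The rule itself therefore favoured a difference in them, as in the rises from near 0 above.

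**Figure D4:**
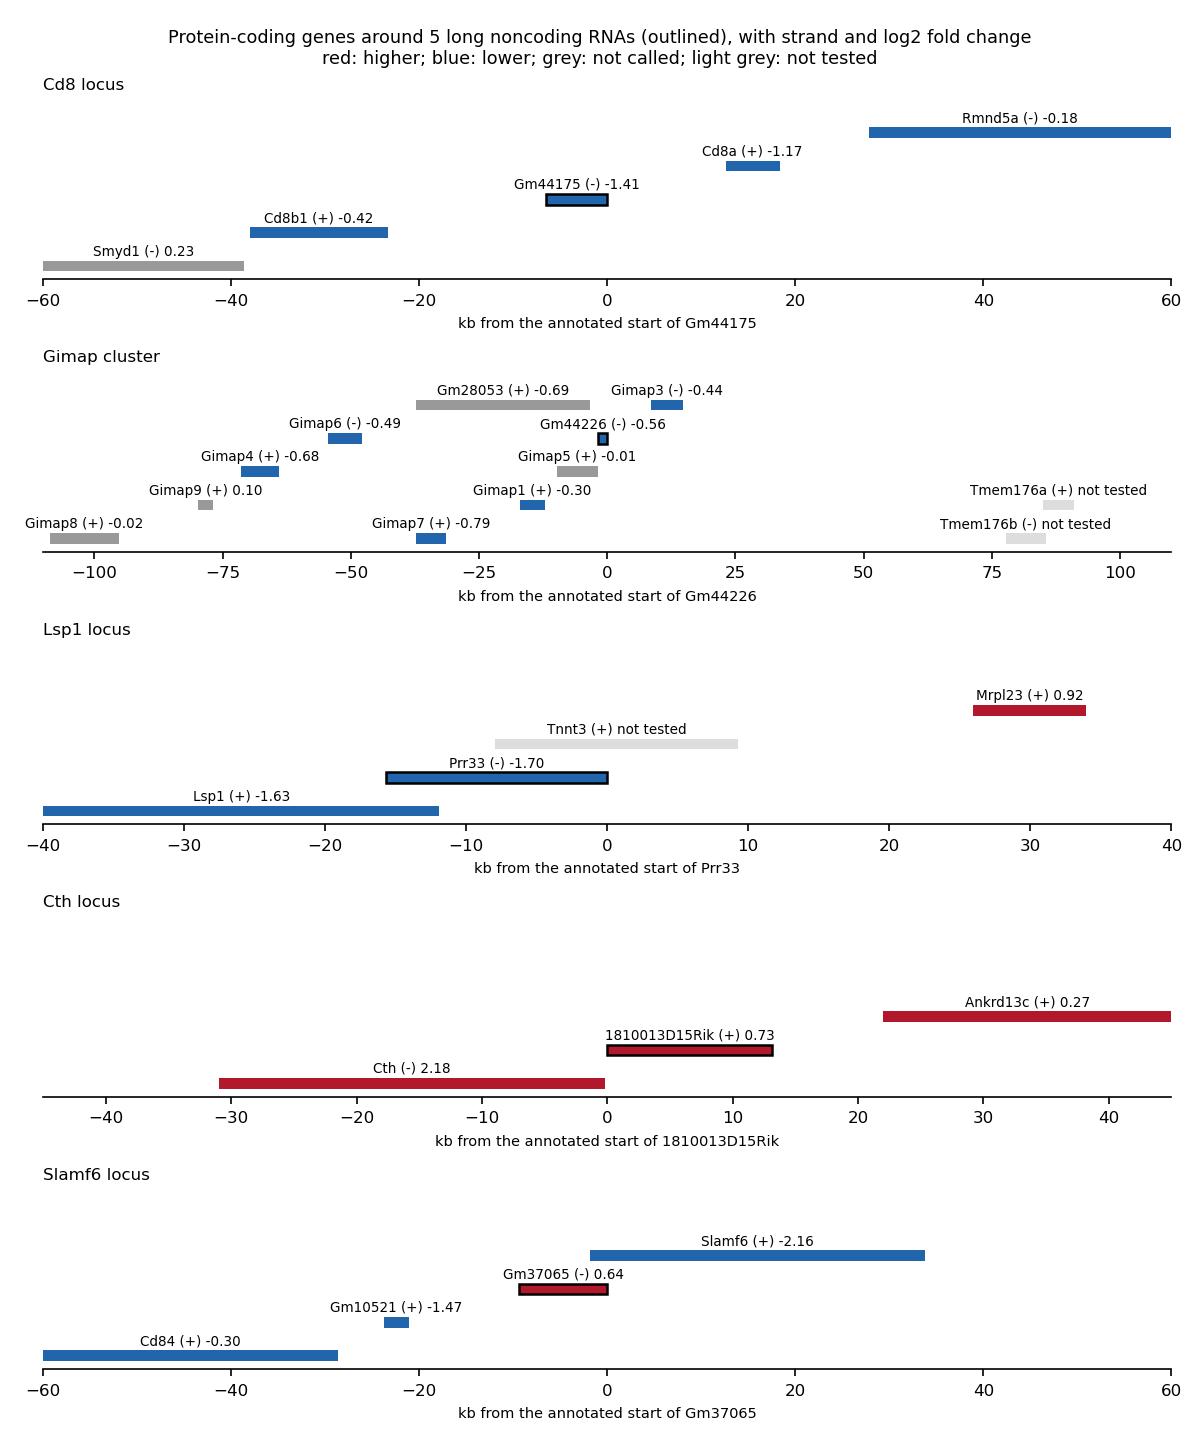
Gene bodies around 5 long noncoding RNAs (outlined), drawn by distance in kb from the annotated start of the long noncoding RNA (x axis), with strand and log2 fold change as labels and rows used only to keep genes apart. Red genes were higher, blue lower, grey not called and light grey not tested. Gm44175 (-1.41) and Cd8a (-1.17) are both lower, 1810013D15Rik (0.73) and Cth (2.18) both higher, and Gm37065 (0.64) and Slamf6 (-2.16) differ in direction.

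Each long noncoding RNA was set beside its nearest protein-coding gene. Of the 50 called genes, 40 had a partner that was tested. In 16 pairs (40%) both were called in the same direction, in 3 (7.5%) in opposite directions, and in 21 the partner was not called. Among protein-coding genes and their nearest protein-coding gene, measured the same way over 2476 pairs, 25.4% were called in the same and 9.98% in opposite directions. No test was made of this difference. Of the 16 pairs, 10 share exonic bases, where reads of the 2 genes may be mixed. The 16 also include 4931406G06Rik with 4932438H23Rik, which RefSeq treats as the same gene. The count of 16 was 8 without IL-3 replicate 3 and 10 without PBS replicate 1, when the count of 3 became 5.

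Over all 252 pairs with both genes tested, the log2 fold changes had a Pearson correlation of 0.23 and a Spearman correlation of 0.24, as a description across genes that share libraries. The Pearson value over 7573 protein-coding pairs was also 0.23. Within 100 kb of the called genes, 48 of which had a protein-coding neighbour, 175 neighbours were tested. Of these, 43 were called in the direction of the long noncoding RNA, 20 in the other direction, and 112 were not called. Over all genes tested, 30.9% were called. The 175 include nearest partners already counted above. No like count was made for protein-coding genes at this distance, so the split between directions has no background and was not tested.

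**Figure D5:**
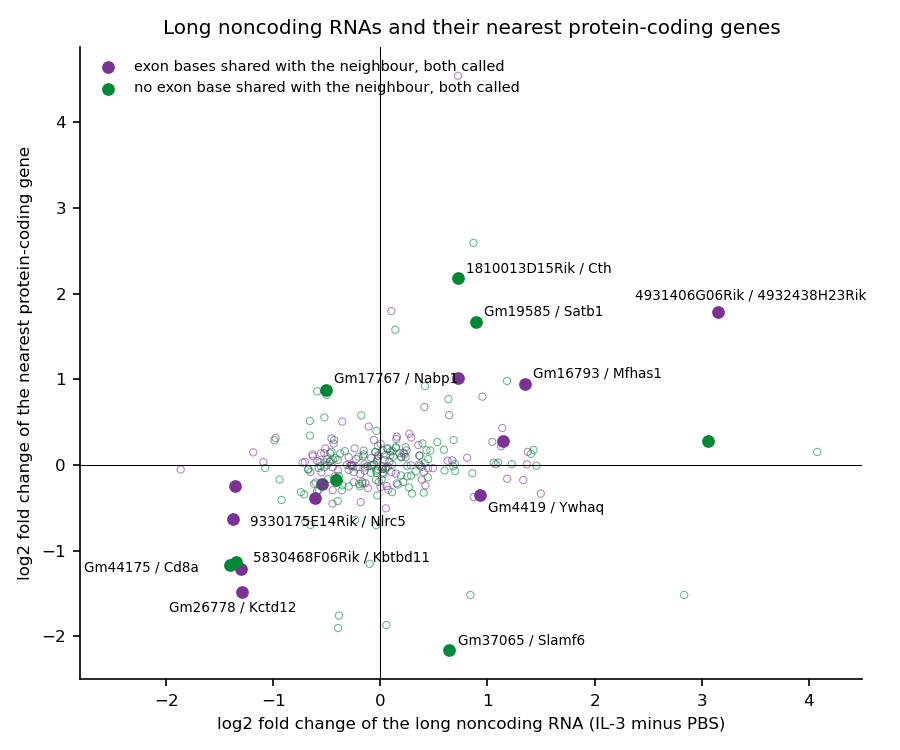
The log2 fold change of the long noncoding RNA (x axis) against that of its nearest protein-coding gene (y axis), IL-3 minus PBS supernatant, for 252 pairs. Filled points are the 19 pairs in which both genes were called, purple where exonic bases are shared and green where they are not, and open points are the other pairs. Of the filled points, 16 lie in the quadrants of equal sign and 3 in those of opposite sign.

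The pair with the closest starts among those called together was 1810013D15Rik and Cth, named after its values were seen. Cth encodes cystathionine gamma-lyase, the last enzyme of cysteine synthesis by transsulfuration. The 2 genes run away from each other from starts 142 bases apart, and this stretch is printed because both transcripts begin at its edges. RefSeq (GRCm38.p6) gives the following 300 bases at chr3:157924958-157925257, plus strand, with the bases between the 2 annotated starts in capitals.
1810013D15Rik and Cth: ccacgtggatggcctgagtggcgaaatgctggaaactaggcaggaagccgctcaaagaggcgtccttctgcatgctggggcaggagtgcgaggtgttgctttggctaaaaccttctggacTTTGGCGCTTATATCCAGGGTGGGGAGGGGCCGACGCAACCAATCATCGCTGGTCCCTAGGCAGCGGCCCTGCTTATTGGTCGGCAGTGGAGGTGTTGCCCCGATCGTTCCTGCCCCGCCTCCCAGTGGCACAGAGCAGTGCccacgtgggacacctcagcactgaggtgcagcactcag
The window has 61.3% G and C and 15 CpG. 1810013D15Rik had 7.79, 10.8 and 11.5 CPM with PBS supernatant and 14.4, 20.2 and 15.2 CPM with IL-3 supernatant. Its groups lay apart (log2 fold change 0.73, SE 0.16, adjusted p = 0.00371, edgeR). Cth had 24.9, 20.3 and 23.1 CPM and then 112, 99.9 and 97.6 CPM, a larger rise of 2.18 (SE 0.08, adjusted p = 5.82e-12, edgeR). Ankrd13c, on the far side of 1810013D15Rik, changed by 0.27 (SE 0.08, adjusted p = 0.0139, edgeR).

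Gm19585 and Satb1 were called together across a much longer distance, and this pair too was named after its values were seen. Satb1 encodes a chromatin organiser needed for T cell development, and the GENCODE start of Gm19585 lies 153125 bases from it. Gm19585 had 26.2, 17.7 and 18.99 CPM with PBS supernatant and 37.5, 39.3 and 39.6 CPM with IL-3 supernatant. All IL-3 values lay above the PBS values (log2 fold change 0.89, SE 0.12, adjusted p = 7.76e-05, edgeR). Satb1 rose from 252 ± 13.4 to 803 ± 12.9 CPM (SD, n = 3), by 1.67 (SE 0.05, adjusted p = 7.40e-13, edgeR).

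Other pairs that fell together were led by 5830468F06Rik with Kbtbd11, Gm26778 with Kctd12 and Gm11110 with Tnfsf9. 5830468F06Rik, named after its values were seen, shares no exonic base with Kbtbd11, and they changed by -1.35 (SE 0.37, adjusted p = 0.0106, edgeR) and -1.13 (SE 0.07, adjusted p = 2.60e-09). Without PBS replicate 2 the value of 5830468F06Rik was -1.09 and not called. Gm26778 lies with 100% of its exonic bases on exons of Kctd12, a potassium channel tetramerisation domain gene, and they changed by -1.29 (SE 0.41, adjusted p = 0.0252, edgeR) and -1.49 (SE 0.31, adjusted p = 0.00298). Gm26778 was not called without PBS replicate 1 (-1.18), PBS replicate 3 (-1.20), IL-3 replicate 2 (-1.11) or IL-3 replicate 3 (-1.29). It met the count minimum mainly through the PBS libraries (93 counts against 43 with IL-3 supernatant), so the rule itself favoured a difference in it.

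Gm11110 overlaps Tnfsf9, which encodes the 4-1BB ligand of the TNF superfamily. Gm11110 changed by -1.30 (SE 0.47, adjusted p = 0.0454, edgeR) and Tnfsf9 by -1.21 (SE 0.26, adjusted p = 0.00179, edgeR). The rule favoured a difference in Gm11110 too, which met the count minimum mainly through the PBS libraries (81 counts against 38 with IL-3 supernatant). The call of Gm11110 was the weakest of these. It was kept without IL-3 replicate 2 (-1.85) and lost without any other single library, with values from -1.45 to -0.995, and DESeq2 did not call it (adjusted p = 0.0633).

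The 3 pairs of opposite direction were Gm37065 with Slamf6, Gm17767 with Nabp1 and Gm4419 with Ywhaq. Gm37065 starts within Slamf6, the gene of a SLAM family receptor on T cells, and runs out past its start on the opposite strand, sharing no exonic base with it. It had 5.06, 4.21 and 5.36 CPM with PBS supernatant and 6.80, 9.91 and 6.08 CPM with IL-3 supernatant. The rise of 0.64 (SE 0.20, adjusted p = 0.0218, edgeR) lost its call without PBS replicate 2 (0.56) or IL-3 replicate 2 (0.41). Slamf6 went the other way, from 27.6, 23.6 and 31.1 CPM to 4.58, 6.35 and 7.40 CPM, by -2.16 on the log2 scale (SE 0.16, adjusted p = 9.80e-08, edgeR).

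Gm17767 had 39.0, 31.5 and 31.4 CPM with PBS supernatant and 23.1, 24.6 and 23.9 CPM with IL-3 supernatant. It fell without overlap of the groups (log2 fold change -0.51, SE 0.10, adjusted p = 0.000758, edgeR), while Nabp1, a gene for a single-stranded DNA-binding protein 28661 bases away, rose by 0.88 (SE 0.15, adjusted p = 0.00968, edgeR). Gm4419 rose (values above, adjusted p = 0.00247), and Ywhaq, which encodes a 14-3-3 protein, fell by 0.35 (SE 0.05, adjusted p = 4.22e-05, edgeR). AI504432, 1434 bases from the potassium channel gene Kcna3 and named after its values were seen, did not pass the test (-0.70, SE 0.26, adjusted p = 0.123, edgeR), though its groups did not overlap and DESeq2 gave an adjusted p of 0.044. Kcna3 was lower (-0.66, SE 0.11, adjusted p = 0.000231, edgeR).

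RefSeq promoter windows, from 250 bases before to 50 after a start, were found for 135 of the 310 genes, among them 13 that were higher and 6 that were lower. In these windows 8 short motifs known from cytokine and stress signalling were searched on both strands (TTCNNNGAA, TTC and GAA with 4 bases between them, GAAA and GAAA with 2 bases between them, TGANTCA, TGACGTCA, TGATGNAA, GGGANTTCC and AGATAA). Among the 19 called genes, the motif of TTC and GAA with 4 bases between them was found in 3 of the 6 lower and 1 of the 13 higher, against 5.93% of the 135 windows and 6.95% of all 32851 RefSeq promoters. The lower genes with it were 9330175E14Rik, 1700097N02Rik and 5031425E22Rik, and the last lost its call in each of the 6 fits that left out 1 library, so that the count of 3 rests on uncertain calls. That motif is the spaced palindrome known from STAT6 sites, and a match is a description of letters, not of binding. AGATAA was found in 1 higher gene, Mir155hg, and in 11.2% of all promoters, but that RefSeq window lies 9855 bases from the GENCODE start. No other motif was found in the 19 windows. Some other windows also lie far from the GENCODE start, such as those of Gm19585 (higher, 162873 bases) and AW112010 (lower, 5241 bases). The largest share of any motif over the 135 windows was 7.41%.

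The 3 called windows with this 4-base spacing that lie within 71 bases of the GENCODE start are printed from RefSeq (GRCm38.p6) with the match in capitals, to show where it stands. They are chr8:94435054-94435353, chr17:30626856-30627155 and chr16:10683560-10683859, all on the minus strand, and each begins 250 bases before the start of the gene.
9330175E14Rik: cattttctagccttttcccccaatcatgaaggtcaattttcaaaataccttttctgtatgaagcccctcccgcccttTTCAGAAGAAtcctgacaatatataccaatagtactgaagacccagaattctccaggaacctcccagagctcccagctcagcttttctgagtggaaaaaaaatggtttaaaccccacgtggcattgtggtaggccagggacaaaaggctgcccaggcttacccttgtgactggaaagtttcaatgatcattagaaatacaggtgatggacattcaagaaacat
1700097N02Rik: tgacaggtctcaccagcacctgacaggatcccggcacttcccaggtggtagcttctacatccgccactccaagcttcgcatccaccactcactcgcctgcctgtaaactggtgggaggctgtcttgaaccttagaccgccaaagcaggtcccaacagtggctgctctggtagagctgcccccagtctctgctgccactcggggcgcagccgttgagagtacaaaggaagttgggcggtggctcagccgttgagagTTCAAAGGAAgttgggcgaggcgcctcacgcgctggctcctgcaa
Gm15558: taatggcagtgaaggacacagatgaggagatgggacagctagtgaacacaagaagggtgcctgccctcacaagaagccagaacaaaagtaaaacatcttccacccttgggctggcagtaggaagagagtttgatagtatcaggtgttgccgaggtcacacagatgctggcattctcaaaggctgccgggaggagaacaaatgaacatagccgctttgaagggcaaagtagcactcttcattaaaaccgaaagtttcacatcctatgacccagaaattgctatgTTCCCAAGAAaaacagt
The match begins 173 bases before the start in 9330175E14Rik, which fell, at base 6 in 1700097N02Rik, which fell, and at base 34 in Gm15558, which rose. The windows of the 13 higher genes had a median of 15 CpG and those of the 6 lower genes 3, against 15.5 in the 116 not called and 7 over all promoters. These windows include the ones far from the GENCODE start, such as that of AW112010 among the 6 lower genes, and the difference was not tested.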

How the data were processed

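RNA-seq libraries were made from poly(A) RNA of CD8 T cells with a kit that does not mark strand, per the labels' protocols, which favours polyadenylated transcripts. Per the submitters' processing notes, RSEM 1.2.12, Bowtie2 2.2.0, edgeR 3.20.9 and the build GRCm38 were used, while the counting strand and the annotation release were not given in the sources used here. The authors deposited expected counts and TPM per gene for each library, except that TPM of PBS replicate 2 were deposited per isoform and were summed here by gene (99.7% matched). RSEM divides reads between genes that share sequence, and 50.2% of the values of the 310 genes were fractional.

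Identifiers were matched to GENCODE vM21 (46005 of 46517, the others holding at most 0.202% of a library's counts), which gave types, positions, exon overlap on either strand and the nearest protein-coding gene by distance between gene bodies. Counts were rounded to whole numbers and fitted with edgeR 4.0.16 (filterByExpr, TMM, robust quasi-likelihood, group as the only term) over all 12407 genes kept, in R 4.3.3. CPM use TMM-scaled library sizes. A call is an adjusted p below 0.05 (Benjamini-Hochberg). A 0 in a library allows up to 0.135 to 0.173 CPM (3 counts, counting error only). The code was tested on simulated data. DESeq2 1.42.0, limma 3.58.1 (voom, and log2 of TPM plus a pseudocount), other scalings and filters, a replicate block and leaving out each library were the alternatives.

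The genes and the gene lists were chosen with earlier results of these data known. Named genes were the 12 highest and 12 lowest called changes without overlap at an average log2 CPM of 1 or more, the 10 highest by CPM, all characterised RNAs and snoRNA hosts of the lists, and up to 8 called pairs. Genes named after their values were seen are marked in the text. RefSeq (GRCm38.p6) gave sequences, and 182 of the 310 genes matched it by symbol, 9 of them as protein-coding.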

Additional observations from a re-analysis of the deposited data

How the results depend on the processing

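The counts of 28 higher and 22 lower genes depended on the strictness of the call and on shared exons: a test against a fold of 1.2 gave 17 and 14, an adjusted p below 0.01 gave 17 and 12, limma on TPM with a pseudocount of 1 and no filter gave 16 and 13, and genes that share no exonic base with a protein-coding gene gave 15 and 12, the last by construction. Leaving out 1 library gave 22 to 28 higher and 17 to 22 lower. The 16 pairs called in the same direction became 7 against a fold of 1.2, 6 at an adjusted p below 0.01, 10 with TPM and a pseudocount of 0.1, 6 with unfiltered TPM, 10 at 200 or more summed counts and 6 without shared exons, and 8 to 13 with 1 library left out. The 3 pairs of opposite direction became 5 without the filter, 1 against a fold of 1.2, 0 with unfiltered TPM and 3 to 5 with 1 library left out. Where no construction is named, the cause was not tested.

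With a replicate block, 26 of the 28 rises and 19 of the 22 falls were kept (27 and 21 called in all, with 11 pairs in the same and 4 in opposite directions). Among the named genes the block ended the calls of Epb41l4aos (adjusted p = 0.0616), Gm26617 (0.0553) and Gm11110 (0.0678). Deviations of same-numbered libraries had correlations of -0.15, 0.05 and 0.25, within the range of -0.28 to 0.26 of differently numbered ones. With 3 libraries per group, these values cannot show whether a number marks a shared mouse, day or batch. DESeq2 kept 26 and 19, and voom 27 and 22. Over 62 named genes and 1115 alternative values, 1028 stayed on the same side of the threshold, 80 lost a call, 7 gained one and 0 called values changed direction, while 24 values of 10 uncalled genes, such as AY036118 and Malat1, changed sign. The median standard error was 0.43 below an average log2 CPM of 1 and 0.13 from 3 to 5, so smaller changes could be called in the latter.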

Other observations

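Several known noncoding RNAs carry other annotation types and so lie outside the 310 genes. Among them, Mir22hg, the host transcript of miR-22, was higher with IL-3 supernatant, from 3.57 ± 0.31 to 7.83 ± 0.54 CPM (SD, n = 3), with a log2 fold change of 1.13 (SE 0.17, adjusted p = 7.61e-05, edgeR). Dleu2, the host transcript of miR-15a and miR-16-1, was lower, from 16.5 ± 2.33 to 10.4 ± 1.72 CPM, with a log2 fold change of -0.66 (SE 0.14, adjusted p = 0.00182, edgeR). A930005H10Rik was lower too, from 3.83 ± 0.27 to 1.37 ± 0.52 CPM, with a log2 fold change of -1.47 (SE 0.32, adjusted p = 0.00211, edgeR). Firre, a long noncoding RNA of the X chromosome, was not called at 25.9 ± 2.07 and 25.3 ± 1.37 CPM (log2 fold change -0.04, SE 0.09).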
